A study of Mus musculus with 4 samples.

Results

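The genes described are the fatty acid elongases *Elovl1*, *Elovl3*, *Elovl4*, *Elovl5* and *Elovl6* and the stearoyl-CoA desaturases *Scd1* and *Scd2*. With them are the polyunsaturated fatty acid desaturases *Fads1* and *Fads2* and their relative *Fads3*. The 10 genes were chosen by symbol, with earlier results of these data known. All were found among the 19030 genes of the expression table. The tissue is the inguinal white fat (ingWAT), which lies under the skin, of C57BL/6 mice that the labels give as 3 months old and kept at 4°C. Ctrl mice were Oct3 fl/fl littermates without Cre. In cKO mice (Oct3 fl/fl with Adiponectin-Cre), the Cre is driven by the promoter of an adipocyte gene, so that *Oct3* (*Slc22a3*, a transporter that takes up norepinephrine) is removed in adipocytes and kept in the other cells of the depot. The methods describe male mice and a cold challenge that began with 1 week at 16°C and ended with 3 weeks at 4°C. There were 2 libraries of each genotype, and the labels do not say whether they came from separate mice, so the p-values measure only the spread between these libraries. Values are FPKM (fragments per kilobase of transcript and per unit of sequencing depth), a level per transcript length that allows genes to be set side by side within a library.

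Long fatty acids are built from palmitate in the endoplasmic reticulum. An elongase, the product of an *Elovl* gene, performs the condensation that sets the rate of each elongation cycle, and a reductase, a dehydratase and a second reductase complete it. Stearoyl-CoA desaturases place the first double bond into saturated chains and so make the oleate and palmitoleate that fill triglycerides, whereas Fads1 and Fads2 alternate with elongases to turn dietary linoleate and linolenate into longer polyunsaturated fatty acids. *Elovl3* is known as a gene that responds strongly to cold in brown adipose tissue.

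Ablation of *Oct3* was accompanied by changes in 6 of the 9 genes that could be tested, and the called elongases were higher while the called desaturases were lower. *Elovl3* and *Elovl6* were higher in cKO, by 3.90-fold and 1.42-fold in mean FPKM. *Scd2*, *Fads1*, *Fads2* and *Fads3* were lower, at 0.651, 0.550, 0.662 and 0.491 times the Ctrl mean. *Elovl1*, *Elovl5* and *Scd1* did not pass the test, and *Elovl4* was below the level for testing. A gene was tested if its mean FPKM over the 4 libraries was at least 1, and called if the Benjamini-Hochberg adjusted p of limma on log2(FPKM + 1) was under 0.05. Of all 12658 genes tested, 25.8% were called, 12.0% as higher and 13.8% as lower in cKO. The 9 genes had a median log2 fold change of -0.11, against -0.01 over all genes tested, and their median absolute log2 fold change was 0.55, against 0.15. Calls were more common at higher levels. With a filter at a mean FPKM of at least 5, which all 9 genes passed, 2868 of 8784 genes were called. In bulk tissue, fewer cells of a type and less RNA per cell cannot be told apart.

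**Figure D1:**
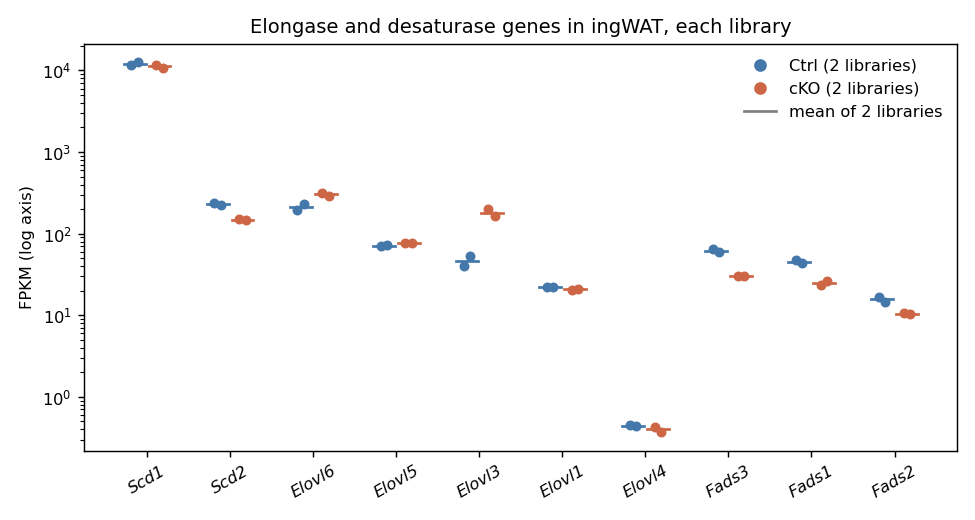
FPKM on a log axis of the 10 genes in each library, with Ctrl in blue, cKO in orange and a bar at the mean of 2 libraries. *Scd1* lies at or above 10716 in all 4 libraries and *Elovl4* at or below 0.45, and the cKO points of *Elovl3* lie at 198 and 164 against 40.3 and 52.6 in Ctrl.

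*Slc22a3* itself was at 17.0 and 17.7 FPKM in Ctrl and 9.07 and 9.50 in cKO (log2 fold change -0.83, SE 0.07, limma adjusted p = 0.000439). The depth of the libraries was not given, and was estimated from the steps of the FPKM values as 17250000 to 18700000 reads. Marker lists of several cell types also differed between the genotypes. Their counts, here and below, are to be read beside the 12.0% called higher and 13.8% called lower over all genes tested. The summed FPKM of 14 skeletal muscle markers was 1823 to 2673 in Ctrl and 48.9 to 49.9 in cKO, with 11 of 11 tested genes lower. The white adipocyte markers did not all move. *Plin1*, *Lipe* and *Pnpla2* were not called and their groups overlapped (log2 fold changes -0.07, -0.02 and 0.05). *Fabp4*, which had the highest FPKM of the list, was not called either (log2 fold change -0.25). The sum of 10 white adipocyte markers was 33368 to 35142 in Ctrl and 26110 to 26262 in cKO, with 6 of 10 lower. This white adipocyte count was 1 without Ctrl replicate 1, 3 without Ctrl replicate 2 and 3 with no filter. The sum of 11 brown and beige markers was 1600 to 1914 in Ctrl and 4272 to 5031 in cKO, with 10 of 11 higher.

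A promoter was looked up for each gene in the RefSeq table of GRCm38.p6, and 6 of the 10 genes had an entry. The sequences shown are those of the called genes that had an entry, which are *Elovl6*, *Fads3* and *Fads2*. The called genes *Elovl3*, *Scd2* and *Fads1* had no entry, so their promoters were not searched. Each is the 250 bases before a start of transcription in that table, written 5′ to 3′ on the strand of the gene, with motif matches in capitals. The windows of *Elovl6* and *Fads2* end just before the first base of the gene, whereas that of *Fads3* begins 443 bases inside the annotated gene and so lies before a start further downstream.
Elovl6, chr3:129532136-129532385, plus strand: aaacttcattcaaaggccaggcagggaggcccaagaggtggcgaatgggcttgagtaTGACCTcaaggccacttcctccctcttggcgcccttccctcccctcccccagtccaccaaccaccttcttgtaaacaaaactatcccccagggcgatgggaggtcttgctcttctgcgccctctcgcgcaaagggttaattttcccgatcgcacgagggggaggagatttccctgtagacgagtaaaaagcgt
Fads3, chr19:10041298-10041547, plus strand: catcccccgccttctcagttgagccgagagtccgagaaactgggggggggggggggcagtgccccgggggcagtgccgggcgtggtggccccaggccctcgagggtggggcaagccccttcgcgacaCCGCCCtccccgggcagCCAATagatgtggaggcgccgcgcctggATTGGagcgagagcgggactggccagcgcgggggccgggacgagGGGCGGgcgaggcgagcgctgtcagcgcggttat
Fads2, chr19:10101504-10101753, minus strand: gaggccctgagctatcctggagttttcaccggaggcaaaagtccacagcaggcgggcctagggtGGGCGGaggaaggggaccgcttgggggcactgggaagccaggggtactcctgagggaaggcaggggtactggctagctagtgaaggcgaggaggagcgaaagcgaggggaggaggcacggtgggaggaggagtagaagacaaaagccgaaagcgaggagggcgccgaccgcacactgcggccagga
The motifs searched on both strands were the cAMP response element TGACGTCA, the E-box CACGTG, the CCAAT box CCAAT, the sterol element core CACCCCAC, the nuclear receptor core AGGTCA and the GC box GGGCGG. The *Elovl6* promoter held 1 nuclear receptor core, with its first base 193 bases before the start. The *Fads3* promoter held CCAAT boxes at 106 and 78 bases and GC boxes at 123 and 34 bases before the start. The *Fads2* promoter held 1 GC box, at 186 bases. Promoters of genes that were not called held such motifs too. *Elovl1* had a nuclear receptor core 95 bases before a start, with GC boxes and a CCAAT box, and *Elovl5* had CCAAT boxes and an E-box. *Elovl4*, which was not tested, had GC boxes. Among the 32851 promoters of the table, a nuclear receptor core was present in 14.0%, a CCAAT box in 33.8% and a GC box in 32.7%. The letters of the cAMP response element, the E-box and the sterol element core are not in the windows of *Elovl6*, *Fads3* and *Fads2*. These letters are held by 1.55%, 6.02% and 2.58% of all promoters. The GC content was 56.4% for *Elovl6*, 74.4% for *Fads3* and 64.8% for *Fads2*, against a median of 52.4%, and the windows held 11, 26 and 14 CpG dinucleotides against a median of 6.

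Among the elongases, *Elovl3* (Entrez 12686, GRCm38.p6 chr19:46131897-46135694), which lengthens saturated and monounsaturated chains into the very-long-chain range, had 40.3 and 52.6 FPKM in Ctrl and 198 and 164 FPKM in cKO. Both cKO libraries lay far above both Ctrl libraries. The means were 46.4 ± 8.72 and 181 ± 23.8 (SD, n = 2), and the log2 fold change was 1.95 (SE 0.13, 95% interval 1.63 to 2.26, limma adjusted p = 0.000299). This was the rise of rank 10 among the 12658 genes. The 3′ neighbour *Pitx3* overlaps the gene body by 0.414 kb and was listed at 0.44 and 0.25 FPKM in Ctrl and 1.07 and 0.72 in cKO. Whether the counting used strand is not given in the sources used here, so reads of the overlap cannot be assigned.

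*Elovl6* (Entrez 170439, chr3:129532386-129638495), which lengthens palmitate to stearate and so supplies the substrate of Scd1, had 197 and 229 FPKM in Ctrl and 315 and 289 FPKM in cKO. The groups did not overlap, but the Ctrl libraries differed by more than the cKO libraries did. The means were 213 ± 22.9 and 302 ± 18.5, with a log2 fold change of 0.51 (SE 0.09, 95% interval 0.30 to 0.71, limma adjusted p = 0.00657). Without Ctrl replicate 1 the log2 fold change was 0.40 and the adjusted p 0.0748, and with no filter on low values the adjusted p was 0.0604, so that the call of *Elovl6* depends on these settings.

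*Elovl5* (Entrez 68801, chr9:77917365-77984519), the elongase of polyunsaturated chains, had 69.6 and 73.4 FPKM in Ctrl and 77.8 and 75.8 FPKM in cKO. The cKO values were above the Ctrl values by little more than the gap between replicates, and the gene was not called (log2 fold change 0.10, 95% interval -0.03 to 0.24, limma adjusted p = 0.236). *Elovl1* (Entrez 54325, chr4:118426874-118432953), which extends saturated and monounsaturated chains for sphingolipids, had 22.4 and 22.2 FPKM in Ctrl and 20.4 and 21.2 FPKM in cKO. It was not called either (log2 fold change -0.09, 95% interval -0.23 to 0.04, limma adjusted p = 0.280). Both intervals leave room for changes of up to about 0.24 on the log2 scale. *Elovl4* (Entrez 83603, chr9:83778692-83806305), known for chains beyond the reach of the other elongases in retina, skin and brain, was listed at 0.45 and 0.44 FPKM in Ctrl and 0.43 and 0.37 FPKM in cKO. At the estimated depth this corresponds to about 25, 24, 22 and 19 reads, and a difference of this size was not detectable. *Elovl7* was at 0.43 and 0.42 FPKM in Ctrl and 0.36 and 0.33 in cKO, and *Elovl2* was at or below 0.04 in every library.

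**Figure D2:**
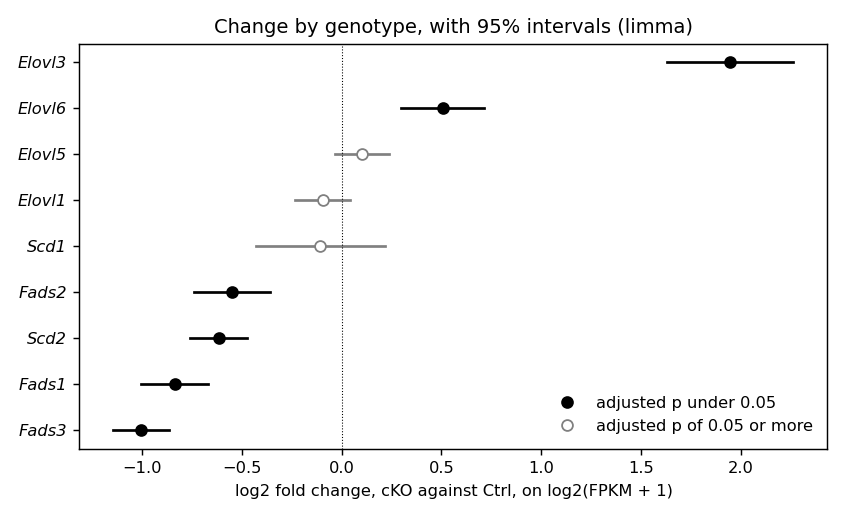
Log2 fold change of cKO against Ctrl on log2(FPKM + 1) for the 9 genes tested, with 95% intervals from limma. Filled points have an adjusted p under 0.05, at 1.95 and 0.51 for *Elovl3* and *Elovl6* and at -0.55 or below for the 4 lower genes, and the intervals of the 3 open points include 0.

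*Scd1* (Entrez 20249, chr19:44394450-44407709), the main stearoyl-CoA desaturase of adipocytes, had 11580 and 12518 FPKM in Ctrl and 11669 and 10716 FPKM in cKO. It was the gene of rank 2 by FPKM in every library, with an estimated 5.14% to 6.00% of the reads. The groups overlapped, since the first cKO library lay between both Ctrl libraries. The means were 12049 ± 664 and 11192 ± 674, and the log2 fold change was -0.11 (SE 0.14, 95% interval -0.43 to 0.22, limma adjusted p = 0.608). The interval is wide beside those of *Elovl1* and *Elovl5*, and a fall to 0.43 lower on the log2 scale lies within it. Its width depends on the variance model and not only on the spread of the *Scd1* replicates. The SE was 0.08 with eBayes without a trend and 0.30 with no filter on low values.

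*Scd2* (Entrez 20250, chr19:44293676-44306864), a second desaturase for the same substrates that is known from brain and from preadipocytes, had 234 and 221 FPKM in Ctrl and 151 and 145 FPKM in cKO. Both cKO libraries were below both Ctrl libraries. The means were 228 ± 9.20 and 148 ± 4.12, with a log2 fold change of -0.62 (SE 0.06, 95% interval -0.76 to -0.47, limma adjusted p = 0.000868). The value of *Scd2* carries an uncertainty that the spread between replicates does not show. Its transcript shares 145 windows of 50 bases, the length of a read, with *Scd1*, which is 2.68% of its 5406 windows. At the estimated depth about 27187 to 33399 *Scd1* reads per library would fall into those shared windows, against 13754 to 23759 reads assigned to *Scd2*. How the quantification divided such reads was not tested. The ratio of *Scd1* to *Scd2* was 49.4 and 56.5 in Ctrl and 77.1 and 73.7 in cKO.

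*Scd3*, known from skin, was at 0.52 and 0.64 FPKM in Ctrl and 1.13 and 0.80 in cKO, with a mean under the level for testing. It shares 167 windows with *Scd1*, and 31312 to 38466 *Scd1* reads would fall into them against 34 to 67 reads assigned to *Scd3*. Its level is therefore uncertain. *Scd4* was at 0.37 and 0.43 FPKM in Ctrl and 0.34 and 0.42 in cKO. The 4 *Scd* genes lie within 204.422 kb of chromosome 19. Their summed FPKM was 11815 and 12741 in Ctrl and 11821 and 10862 in cKO (exact permutation test, two-sided, p = 0.667), of which *Scd1* made up 98.0% to 98.7% in every library.

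*Fads1*, *Fads2* and *Fads3* were all lower in cKO. *Fads1* (Entrez 76267, chr19:10182877-10196874), the last desaturase on the way to arachidonate and eicosapentaenoate, had 46.9 and 43.7 FPKM in Ctrl and 23.6 and 26.2 FPKM in cKO. Both cKO libraries lay well below Ctrl, and the means were 45.3 ± 2.28 and 24.9 ± 1.82. The log2 fold change was -0.84 (SE 0.07, 95% interval -1.01 to -0.67, limma adjusted p = 0.000561).

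*Fads2* (Entrez 56473, chr19:10062765-10101503), which places the first new double bond into linoleate and linolenate, had 16.9 and 14.7 FPKM in Ctrl and 10.5 and 10.4 FPKM in cKO. The Ctrl libraries were spread more widely than the cKO libraries, without overlap. The means were 15.8 ± 1.56 and 10.5 ± 0.0919, with a log2 fold change of -0.55 (SE 0.08, 95% interval -0.74 to -0.36, limma adjusted p = 0.00336). *Fads3* (Entrez 60527, chr19:10040855-10060113), a relative that desaturates the long-chain base of ceramides, had 64.2 and 60.0 FPKM in Ctrl and 30.7 and 30.3 FPKM in cKO. It showed the deepest fall of the 9 genes, to 0.491 times the Ctrl mean. The means were 62.1 ± 2.99 and 30.5 ± 0.262, and the gene fell by 1.0 on the log2 scale (SE 0.06, 95% interval -1.14 to -0.86, limma adjusted p = 0.000178). *Fads2* and *Fads3* share 5 windows of 50 bases, which would hold at most 6 *Fads3* reads per library, and *Fads1* and the elongases share none with their family. *Fads6*, the remaining family gene of the table, was at 0.75 and 1.36 FPKM in Ctrl and 1.03 and 0.98 in cKO and was not called (log2 fold change -0.02, limma adjusted p = 0.944).

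Of the 10 genes, 9 had Ctrl and cKO values that did not overlap, all except *Scd1*. Over all genes tested this held for 66.5%, so with 2 libraries of each genotype an absence of overlap is common.

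On chromosome 19 lie 6 of the 10 genes, where 30.3% of the 469 genes tested were called, and 29.6% without these genes. *Fads3*, *Fads2* and *Fads1* stand within 156.02 kb, with 2.651 kb between *Fads2* and *Fads3* and 81.373 kb between *Fads2* and *Fads1*. Of the 5 tested genes beside this cluster, 2 rose and 3 were not called. These neighbours are named after their values were seen. *Fen1*, which encodes a flap endonuclease of DNA replication and lies beside *Fads1*, was at 4.33 and 3.84 FPKM in Ctrl and 5.46 and 6.13 in cKO and rose (log2 fold change 0.42, limma adjusted p = 0.0178). *Tmem258*, a subunit of the oligosaccharyltransferase, also rose (log2 fold change 0.23, limma adjusted p = 0.0236). *Rab3il1*, on the side of *Fads3*, was not called (log2 fold change -0.22, limma adjusted p = 0.180).

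The order of the levels differed between the genotypes. In Ctrl, *Scd1* was followed by *Scd2* and *Elovl6*, whose ranges of 221 to 234 and 197 to 229 FPKM overlapped, and then by *Elovl5* and *Fads3*. *Elovl3* and *Fads1* came next, with overlapping ranges of 40.3 to 52.6 and 43.7 to 46.9 FPKM, before *Elovl1*, *Fads2* and *Elovl4*. In cKO, *Elovl6* and *Elovl3* took the places behind *Scd1*, with *Scd2* next and *Elovl5*, *Fads3*, *Fads1*, *Elovl1*, *Fads2* and *Elovl4* after it, and no neighbours overlapped. By mean FPKM *Elovl3* thus moved from the sixth place to the third place, although its place beside *Fads1* in Ctrl differed between the libraries.

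The summed FPKM of the 7 elongases was 330 and 378 in Ctrl and 612 and 551 in cKO. The share of *Elovl3* in this sum was 12.2% and 13.9% in Ctrl and 32.4% and 29.8% in cKO. The share of *Elovl6* was 60.1% ± 0.656 in Ctrl and 51.9% ± 0.686 in cKO (SD, n = 2), although its FPKM was higher in cKO. *Elovl5* had 20.3% ± 1.19 of the sum in Ctrl and 13.2% ± 0.742 in cKO, and *Elovl1* had 6.33% ± 0.649 and 3.59% ± 0.360. The groups did not overlap for any of these shares, and the exact permutation test gave p = 0.333, the smallest value that 2 libraries against 2 allow, so the design cannot reach the threshold with this test.

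**Figure D3:**
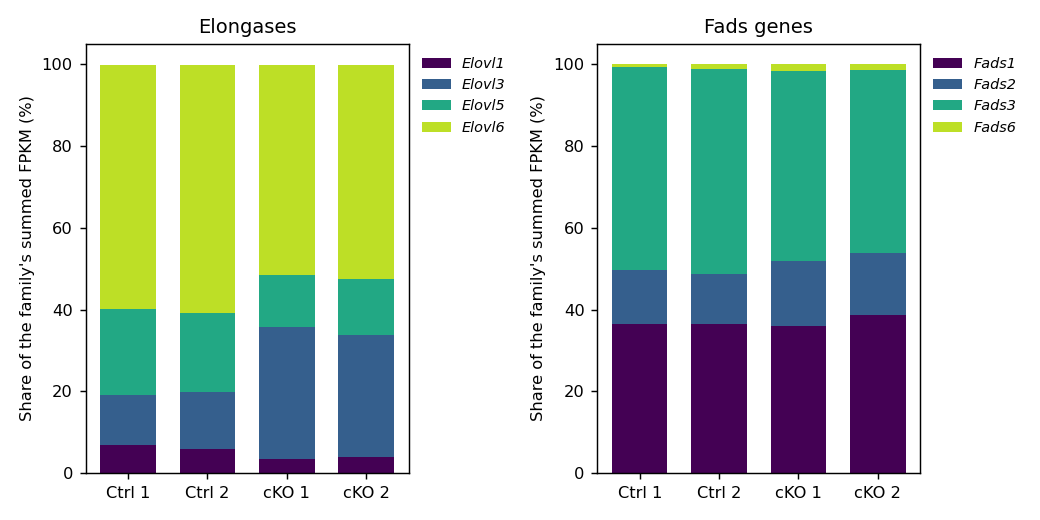
Share of each gene in the summed FPKM of its family (%), in each of the 4 libraries, for the elongases (left) and the *Fads* genes (right). *Elovl3* takes 12.2% and 13.9% in Ctrl and 32.4% and 29.8% in cKO, and the *Fads* shares differ by less. *Elovl2*, *Elovl4* and *Elovl7*, each under 0.14%, are not drawn.

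The summed FPKM of the *Fads* genes was 129 and 120 in Ctrl and 65.9 and 67.9 in cKO. *Fads3* made up 50.0% ± 0.167 of the sum in Ctrl and 45.6% ± 1.36 in cKO, *Fads1* 36.4% ± 0.0387 and 37.2% ± 1.92, and *Fads2* 12.7% ± 0.597 and 15.7% ± 0.472. The shares of *Fads1* overlapped (exact permutation p = 1.0), whereas those of *Fads2* and *Fads3* did not (exact permutation p = 0.333).

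The ratio of 2 genes within a library does not depend on the scaling for depth. There were 7 such ratios. *Elovl3* over *Elovl6* was 0.205 and 0.230 in Ctrl and 0.629 and 0.569 in cKO. *Elovl6* over *Elovl5* was 2.83 and 3.12 in Ctrl and 4.05 and 3.81 in cKO, and *Elovl1* over *Elovl3* was 0.555 and 0.422 in Ctrl and 0.103 and 0.129 in cKO. *Scd1* over *Elovl6*, the desaturase over the elongase that makes its substrate, was 58.9 and 54.7 in Ctrl and 37.0 and 37.1 in cKO. *Fads1* over *Fads2* was 2.77 and 2.97 in Ctrl and 2.24 and 2.52 in cKO, and *Fads3* over *Fads2* was 3.80 and 4.08 in Ctrl and 2.91 and 2.91 in cKO. None of the 7 ratios overlapped between the genotypes, and each had an exact permutation p of 0.333, also after adjustment over the 7. The ratios share genes and each holds a called gene, so they are not separate results. How often ratios of other gene pairs fail to overlap was not tested.

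The genes with the most similar profiles were taken from all genes tested by the Euclidean distance between the centred log2(FPKM + 1) values of the 4 libraries. Nearest to *Elovl3* were *Ucp1*, the uncoupling protein of brown and beige fat, at a distance of 0.0557, the C-type lectin *Clec4d* at 0.124 and the kininogen gene *Kng2* at 0.184. *Ucp1* was at 335 and 446 FPKM in Ctrl and 1658 and 1420 FPKM in cKO, so *Ucp1* and *Elovl3* had their lowest value in the first Ctrl library and their highest in the first cKO library. *Clec4d* was at 0.29 and 0.72 FPKM in Ctrl and 5.83 and 4.72 FPKM in cKO. At such low levels the added 1 shrinks fold changes, so its small distance does not mean an equal fold change in FPKM. Nearest to *Scd1* were *P2rx7*, *Dtymk* and *Gins2*, at distances from 0.0106 to 0.0170. Nearest to *Fads2* were the protease gene *Prss23* at 0.00893, the fucosyltransferase gene *Fut10* at 0.0178 and the collagen gene *Col5a2* at 0.0208. With 4 libraries many genes have close neighbours, and these names are a description.

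The other steps of the pathway were followed in 7 lists of genes. Their counts are to be read beside the 25.8% called over all 12658 genes tested. The calls of 16 of their 21 called genes were lost when Ctrl replicate 1 was left out, all 21 kept the sign of their change under every alternative that tested them, and 5 were called in each of these (*Srebf1*, *Ppara*, *Ppargc1a*, *Ppargc1b* and *Abcd2*). Among the 6 partners of the elongation cycle 1 was called, *Hsd17b12*, the ketoacyl reductase, at 274 and 282 FPKM in Ctrl and 336 and 329 FPKM in cKO (log2 fold change 0.26, limma adjusted p = 0.0196). The median of this list was -0.07. Among the 5 tested genes that supply electrons to desaturases, *Cyb5a*, the cytochrome that hands electrons to the desaturases, fell from 431 and 412 FPKM to 327 and 340 FPKM (log2 fold change -0.34, limma adjusted p = 0.00899). *Cyb5r3*, the reductase of that cytochrome, rose from 125 and 128 to 156 and 142 FPKM (log2 fold change 0.23, limma adjusted p = 0.0374), and the other 3 were not called.

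In the list for palmitate synthesis 1 of 8 genes was higher and 1 lower, against 25.8% called over all genes tested. The median log2 fold change was 0.03. *Acacb*, the mitochondrial acetyl-CoA carboxylase, rose by 0.50 on the log2 scale (limma adjusted p = 0.00297), and *Acss2*, which activates acetate, fell by 0.36 (limma adjusted p = 0.00512). *Acaca*, the other acetyl-CoA carboxylase of the list, was not called (log2 fold change 0.11, limma adjusted p = 0.294). *Fasn*, the fatty acid synthase, was at 1930 and 1984 FPKM in Ctrl and 2208 and 2026 FPKM in cKO (log2 fold change 0.11, limma adjusted p = 0.399).

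Of the 22 transcription factors, coactivators and processing proteins known to regulate lipogenic and elongase genes, 4 were higher, 3 lower and 15 not called. Over all genes tested 25.8% were called. The median log2 fold change of the 22 was 0.03. *Srebf1*, the sterol-responsive activator of lipogenic genes, was at 138 and 118 FPKM in Ctrl and 88.8 and 89.9 FPKM in cKO (log2 fold change -0.51, limma adjusted p = 0.00422). *Ppara*, a fatty acid receptor, rose from 7.04 and 9.60 to 19.4 and 16.8 FPKM (log2 fold change 1.04, limma adjusted p = 0.00206). The coactivators *Ppargc1a* and *Ppargc1b* rose by 0.83 and 0.81 on the log2 scale. *Pparg*, the adipocyte regulator, and *Nr1h3*, an oxysterol receptor, fell by 0.25 and 0.23.

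The ceramide synthases differ in the acyl chains they take up. Of the 4 tested, *Cers5*, which uses mainly palmitoyl-CoA, was called (log2 fold change -0.21, limma adjusted p = 0.0417), and the median was -0.18. *Cers2*, which uses very long chains, was not called (log2 fold change -0.04, limma adjusted p = 0.620). In the peroxisomal list 1 of 8 genes was higher and 3 lower. *Abcd2*, a peroxisomal importer of very long and polyunsaturated acyl-CoA, was at 93.5 and 91.2 FPKM in Ctrl and 50.7 and 58.9 FPKM in cKO (log2 fold change -0.74, limma adjusted p = 0.0011). The thiolases *Acaa1b* and *Acaa1a* fell by 0.27 and 0.23, and the importer *Abcd3* rose by 0.40. Among 8 acyltransferases tested, *Lpcat2* and *Agpat3* rose by 0.37 and 0.31 on the log2 scale, and *Dgat2*, a triglyceride-forming enzyme, and *Lpcat3*, which places polyunsaturated chains into phospholipids, fell by 0.57 and 0.24.

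**Figure D4:**
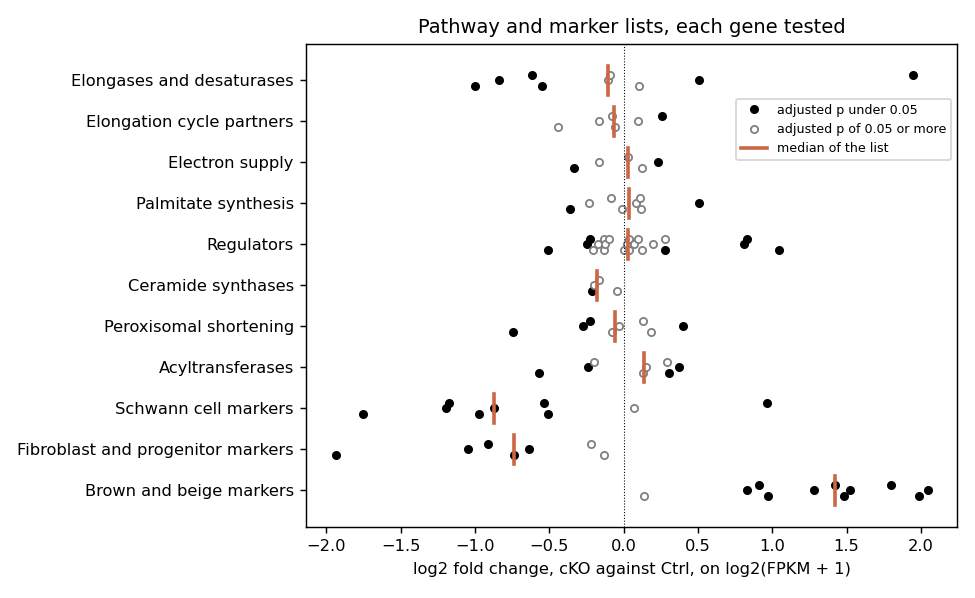
Log2 fold change of cKO against Ctrl for each tested gene of the elongases and desaturases, 7 pathway lists and 3 marker lists, with filled points for an adjusted p under 0.05 and a bar at the median. The pathway medians lie between -0.18 and 0.14, and the medians of the Schwann cell, progenitor and brown and beige markers lie at -0.87, -0.74 and 1.42.

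Markers of several cell types moved in the same direction as some of these genes. The 4 genes that fell stood beside a lower summed FPKM of 10 Schwann cell and nerve markers, 304 to 336 in Ctrl and 166 to 180 in cKO, with 7 of the 9 tested lower and *S100b* higher. These 8 calls were 5 without Ctrl replicate 1, without cKO replicate 1 or with no filter. The sum of 7 fibroblast and progenitor markers was 1139 to 1336 in Ctrl and 742 to 755 in cKO, with 5 of 7 lower. The skeletal muscle and white adipocyte sums given above were lower in cKO as well. *Elovl3* and *Elovl6* stood beside the higher brown and beige sum. The part of these cell types in the changes of the elongases and desaturases was not tested.

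*Elovl4* and *Scd3* are known from skin, and *Elovl3* from sebaceous glands. The keratinocyte markers *Krt5*, *Krt1*, *Krt15*, *Dsp* and *Dsg3* were below 0.1 FPKM in all 4 libraries, and the summed FPKM of the 9 keratinocyte markers in the table was 4.97 to 5.16 in Ctrl and 2.90 to 3.13 in cKO. Of the 5 sebaceous gland markers tested, 2 were higher and 2 lower, and 1 was called in all without Ctrl replicate 1 and 2 without Ctrl replicate 2. *Plin2* and *Soat1*, which adipocytes and macrophages also express, rose. *Dgat2*, given above, and the melanocortin receptor gene *Mc5r* fell, the latter from 2.06 and 1.81 to 0.20 and 0.50 FPKM. *Krt79* was not called, at 3.04 and 2.81 FPKM in Ctrl and 3.26 and 2.79 FPKM in cKO (limma adjusted p = 0.836). Which cells these transcripts came from was not tested. Of 5 mammary and other epithelial markers listed none reached a mean of 1 FPKM.

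Immune and vascular markers also differed. Over all genes tested, 12.0% were called higher and 13.8% lower in cKO. The B cell list had 7 of 8 and the T cell list 5 of 7 tested genes higher in cKO. The macrophage list had 2 higher and 4 lower of 10, and the endothelial list 3 of 7 lower. The number of calls depended on the libraries used, and leaving out a library also lowered the number over all genes. The medians kept their sign with single libraries left out. They were 0.42 to 0.63 for B cells, 0.44 to 0.72 for T cells, -0.33 to -0.07 for macrophages and -0.26 to -0.11 for endothelial cells. The T cell count was higher without cKO replicate 1 than with all libraries. Without Ctrl replicate 1 limma called 2 B cell genes, 0 T cell genes, 3 macrophage genes and 0 endothelial genes, with 7, 5, 6 and 3 at an unadjusted p under 0.05. The T cell count was 1 without Ctrl replicate 2 and 3 without cKO replicate 2, and the endothelial count was 1 without cKO replicate 1. With no filter the counts were 2 for B cells, 0 for T cells (5 unadjusted), 3 for macrophages and 2 for endothelial cells. Their part in the values of the elongases and desaturases was not tested.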

How the data were processed

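RNA-seq of polyadenylated RNA from ingWAT was read by the authors as 50-base single-end reads, and they deposited 1 table of FPKM for 19030 genes in 2 Ctrl and 2 cKO libraries, with no counts and no comparison columns. The submitters' processing notes name HISAT2 2.0.4, RSEM 1.2.12 and mm10. No scaling between libraries is stated, and multi-mapping reads of near-identical genes may have been divided by estimate. Table columns were matched to the samples by name. No per-sample column was left unused.

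The comparison took the genes whose mean FPKM was 1 or more, on the scale log2(FPKM + 1), and used limma 3.58.1 under R 4.3.3 (eBayes with trend, Benjamini-Hochberg over 12658 genes, two-sided, threshold 0.05). Fold changes on this scale understate the change of genes at low levels. Intervals are 95% limma intervals. Shares and ratios were compared by exact permutation, with a smallest p of 0.333. The scripts were tested on simulated data.

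Depth was estimated from the FPKM steps of 319 genes of at most 400 bases, counting up to 6 reads. Within a tolerance of 0.1 read, 83.9% to 89.6% of these values were whole. Counts were not recovered for genes in general, so no count test was run, and read numbers are estimates. For the 9 tested genes among the 10 described, counting error alone is 0.106% (*Scd1*) to 4.20% (*Fads2*) of the value in the library with the fewest reads.

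Of the gene IDs, 18977 were found in the RefSeq table of GRCm38.p6, which gave coordinates, promoters and transcript sequence lengths. Motifs were searched as exact letters on both strands. Transcripts were compared in windows of 50 bases.

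The genes and lists were chosen with earlier results of these data known. Named are all 10 genes and the other genes of the 3 families, every called gene of a pathway list (the 3 largest rises and 3 largest falls where over 6 were called), *Slc22a3*, and the 3 nearest profiles of *Elovl3*, *Scd1* and *Fads2*. The neighbours of the *Fads* cluster, *Pitx3*, *Fasn*, *Acaca*, *Cers2* and the marker genes are further names. The 11 alternatives were 4 fits that each left out a library, a replicate block, scaling by quantiles or by the median of ratios, a filter at a mean of 5 or none, a pseudocount of 0.1, and a variance model with no trend.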

Additional observations from a re-analysis of the deposited data

How the results depend on the processing

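Over all genes tested, 3269 were called. With no filter, over 19030 genes, the count was 1762, and with single libraries left out it ranged from 877 (without Ctrl replicate 1) to 2429, with 1531 without Ctrl replicate 2 and 2165 without cKO replicate 1. Of the 10 elongase and desaturase genes, 6 were called, and 5 to 6 with single libraries left out. The 4 lower genes were called under all 11 alternatives. The number called higher was 1 with no filter and 1 to 2 with single libraries left out, since *Elovl6* was lost there: its log2 fold change was 0.51 (adjusted p = 0.0604) with no filter, and 0.40 (adjusted p = 0.0748) without Ctrl replicate 1, in a range of 0.40 to 0.62. Fewer libraries leave less information on the spread. The labels do not say whether the replicate numbers pair the libraries. The deviations of same-numbered libraries were not correlated (r = 0.01 over 12658 genes), which does not settle whether they were paired. A replicate block gave 3383 called genes and changed no call among the elongases and desaturases. Without counts in the table, changes of genes at the level of *Elovl4* or *Scd3* are limited by about 19 to 67 estimated reads per library.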
